A study of Mus musculus with 68 samples.

Results

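The genes described here are the receptors that carry BMP and TGF-beta signals into a cell, and the Id genes, which are textbook targets of BMP signalling. They were chosen by name: the BMP receptors Bmpr1a, Bmpr1b, Acvr1 and Bmpr2, the TGF-beta receptors Tgfbr1, Tgfbr2 and Tgfbr3, and Id1, Id2 and Id3, which are 10 of the 23420 gene symbols counted. The tissue was mouse growth plate, the cartilage whose chondrocytes make long bones grow, cut by laser from frozen sections of mice of mixed background; the labels name no other genotype and no treatment of the animals. The 3 zones were resting (slowly dividing reserve cells), proliferative (columns of dividing cells) and hypertrophic (enlarged cells next to bone), taken 2 (P2), 3 (P3) or 28 days (P28) after birth. SMART-seq2, which copies whole transcripts from very little RNA, was used for every library.

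Sections treated with ethanol gave 9 resting, 8 proliferative and 8 hypertrophic libraries at P2, and 8, 9 and 9 at P28. A second treatment of P28 sections, with xylene, gave 14 libraries (4 resting, 5 proliferative, 5 hypertrophic), and a single P3 animal gave 1 ethanol library per zone. Depth ran from 748 to 3347722 counts per library. Ethanol libraries of P2 and P28 with at least 100000 counts, 26 of 51, were added up per animal and zone into 21 sums. Each zone had sums of 4 P2 and 3 P28 animals. Of the P2 animals, only A, D and G had sums of all zones. The zone tests take animal as a block, so P2 animals C, E and F, with a single zone each, add nothing to the tested P2 zone differences. They do enter the values given for each zone. All 11 measured chondrocyte markers were detected in every sum except a P2 hypertrophic one with 10. Summed markers of hypertrophic chondrocytes were 9530 to 71300 CPM in P2 and 69500 to 112000 CPM in P28 hypertrophic sums, against at most 1350 CPM in the other P2 zones and at most 9050 CPM in the other P28 zones.

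Some libraries went against their labels. P28 proliferative replicate 9, labelled as P28 animal D, held 267 counts of Xist and 0 of 4 Y-linked genes, while resting replicate 8 and hypertrophic replicate 9 of the same label held 0 Xist and 76 and 179 Y-linked counts. Hypertrophic replicate 8 of that label held 2 and 0. The resting library of P2 animal G held 128 Xist and 747 Y-linked counts, and the P3 proliferative library 355 and 311. Xylene hypertrophic replicate 3, labelled as animal D, held 31 and 870. For P2 animal D and for P28 animal B the label speaks of more than 1 animal, so each may be a pool. For the 3 calls among the 10 genes, and for the other pathway genes named, adjusted p-values without these libraries are given where a call was lost.

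BMPs and TGF-betas bind a pair of type II receptors, which phosphorylate a pair of type I receptors, and these in turn phosphorylate SMAD proteins that enter the nucleus. BMP type I receptors (BMPR1A, BMPR1B and ACVR1) act through another group of SMADs than the TGF-beta type I receptor TGFBR1, and TGFBR3 (betaglycan) is a co-receptor without kinase activity. In the growth plate, BMP signalling is known to promote chondrocyte proliferation and hypertrophy, and TGF-beta signalling to hold hypertrophy back. Id proteins lack a DNA-binding domain and keep basic helix-loop-helix factors from binding DNA.

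Promoter sequences of RefSeq (GRCm38.p6) matched 8 of the 10 genes by symbol, all except Id1 and Tgfbr3. The 250 bases before the start used in that source for Id2, Id3 and Tgfbr2 are shown because Id genes are where BMP-responsive elements were worked out and because Id2 and Tgfbr2 had the clearest zone values below. Capitals mark GGCGCC, the core of the known BMP-responsive element, and GTCT, the SMAD-binding core, searched on both strands (GTCT reads AGAC on the other); the marked matches do not overlap each other.
Id2: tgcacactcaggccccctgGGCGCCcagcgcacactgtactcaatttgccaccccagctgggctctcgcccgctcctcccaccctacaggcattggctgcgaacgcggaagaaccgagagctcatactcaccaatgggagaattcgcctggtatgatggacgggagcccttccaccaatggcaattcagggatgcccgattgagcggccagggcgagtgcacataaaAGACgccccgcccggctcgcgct
Id3: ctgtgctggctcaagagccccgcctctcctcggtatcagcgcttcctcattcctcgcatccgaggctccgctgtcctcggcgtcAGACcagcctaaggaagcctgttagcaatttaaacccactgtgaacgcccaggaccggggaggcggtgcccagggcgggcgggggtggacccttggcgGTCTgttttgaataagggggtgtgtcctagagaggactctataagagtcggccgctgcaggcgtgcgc
Tgfbr2: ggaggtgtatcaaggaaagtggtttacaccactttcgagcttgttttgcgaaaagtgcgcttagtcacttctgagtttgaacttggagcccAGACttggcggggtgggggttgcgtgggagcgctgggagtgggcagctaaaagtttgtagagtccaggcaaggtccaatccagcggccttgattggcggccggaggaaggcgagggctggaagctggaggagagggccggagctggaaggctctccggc
The Id2 window is chr12:25096093-25096342 on the minus strand, with 1 GGCGCC and 1 GTCT. The Id3 window is chr4:136143572-136143821 on the plus strand, with 0 GGCGCC and 2 GTCT. The Tgfbr2 window is chr9:116175364-116175613 on the minus strand, with 0 GGCGCC and 1 GTCT. By the GENCODE gene bounds given below, the Id2 and Id3 windows lie inside the annotated genes, so the starts used differ from the annotated gene starts. Of 32851 promoters cut in the same way, 9.59% held GGCGCC and 82.9% held GTCT, so GTCT in particular does not set these windows apart. A match is a string of letters, not a shown site.

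In the GENCODE annotation of GRCm38, the BMP type I receptor genes lie on chromosome 14 (Bmpr1a, 34410734 to 34503341), chromosome 3 (Bmpr1b, 141837136 to 142169425) and chromosome 2 (Acvr1, 58388644 to 58567157). The type II receptor gene Bmpr2 lies on chromosome 1 (59763400 to 59879014). Tgfbr1 lies on chromosome 4 (47353222 to 47414931), Tgfbr2 on chromosome 9 (116084293 to 116175360) and Tgfbr3 on chromosome 5 (107106570 to 107289629). Id1 lies on chromosome 2 (152736251 to 152737410), Id2 on chromosome 12 (25093799 to 25097140) and Id3 on chromosome 4 (136143497 to 136145755). Bmpr1a, Acvr1 and Tgfbr3 overlap a gene or pseudogene on the opposite strand that has no row in the table, and SMART-seq2 does not mark strand, so their counts could hold reads of these.

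Levels are given as TMM-normalised CPM, that is, counts relative to the scaled library size. Per kilobase of exon, Id1 was the most abundant of the 10, with a median over the 21 sums of 36.8 CPM per kb. Bmpr1a followed with 8.61, Id3 with 8.21, Id2 with 7.88, Tgfbr1 with 3.49, Tgfbr2 with 2.21 and Tgfbr3 with 2.2 CPM per kb. Acvr1 (0.296), Bmpr2 (0.12) and Bmpr1b (0) stood at the low end. Neighbours in this order do not differ beyond their spread, since each gene ran from 0 CPM per kb in some sum to at least 4.71 CPM per kb in another.

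**Figure D1:**
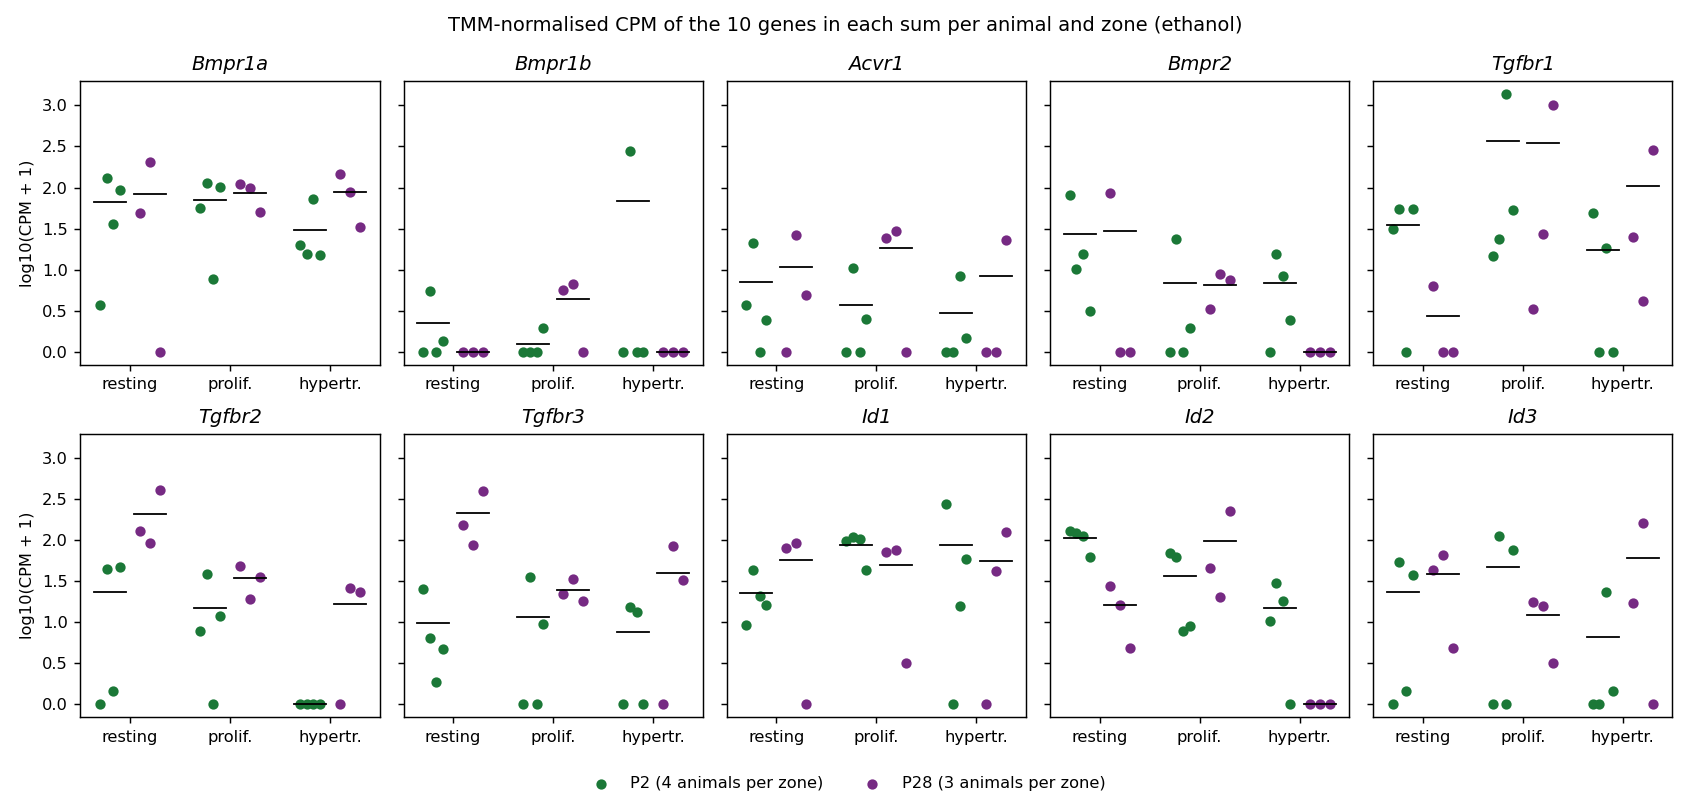
Level of each gene in each sum of an animal and zone, as log10(CPM + 1), with P2 and P28 side by side; black lines are means of CPM. Tgfbr2 and Tgfbr3 stood highest in P28 resting sums, Tgfbr2 was at 0 in all 4 P2 hypertrophic sums, and Id2 was at 0 in all 3 P28 hypertrophic sums.

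Zones were compared within animals, and ages within zones, by edgeR's quasi-likelihood test with p-values adjusted over all genes tested. Tgfbr2 was higher in resting than in hypertrophic cells at P2, Id2 was lower in hypertrophic than in proliferative cells at P28, and Tgfbr3 was higher at P28 than at P2 in resting cells. These were the 3 calls among the 10 genes, and no BMP receptor, Tgfbr1, Id1 or Id3 difference passed the threshold of 0.05. Each of the 3 calls was lost without 1 P2 library, resting replicate 8 of animal G, with the P28 zone comparison sharing a fit with P2 sums (adjusted p of 0.235, 0.0510 and 0.286 in the order given). Of the 9 genes tested between zones (all except Bmpr1b), 0 passed in P2 resting against proliferative, where 0.259% of all 6958 genes tested passed, and 0 in P2 hypertrophic against proliferative (2.31% of all genes). In P2 resting against hypertrophic, 1 of 9 passed (3.77% of all genes). At P28, 0 of 9 passed in resting against proliferative (0.561%), 1 of 9 in hypertrophic against proliferative (1.12%) and 0 of 9 in resting against hypertrophic (1.77%). Between the ages, 1 of 7 genes passed in the resting zone (0.872% of 3327), 0 of 7 in the proliferative zone (0.679% of 4712) and 0 of 2 in the hypertrophic zone (0.102% of 1963). For the change of a zone effect with age, 0 of 9 passed in resting against proliferative (0.144%), hypertrophic against proliferative (0% of genes, with 413 of 6958 at an unadjusted p under 0.05) and resting against hypertrophic (0.273%). In the xylene sums 0 of 9 passed in resting against proliferative (0.34% of 9707), hypertrophic against proliferative (0.453%) and resting against hypertrophic (1.46%). At an unadjusted p under 0.05 the genes numbered 0, 1 and 2 in the 3 P2 zone comparisons in the order given, 2, 1 and 3 at P28, 1, 2 and 1 for the age differences, 3, 0 and 0 between the ages, and 3, 0 and 3 in xylene sums. With DESeq2, the same ethanol comparisons gave 0, 0 and 2, then 1, 1 and 0, then 0 for each age difference, then 1, 0 and 0.

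**Figure D2:**
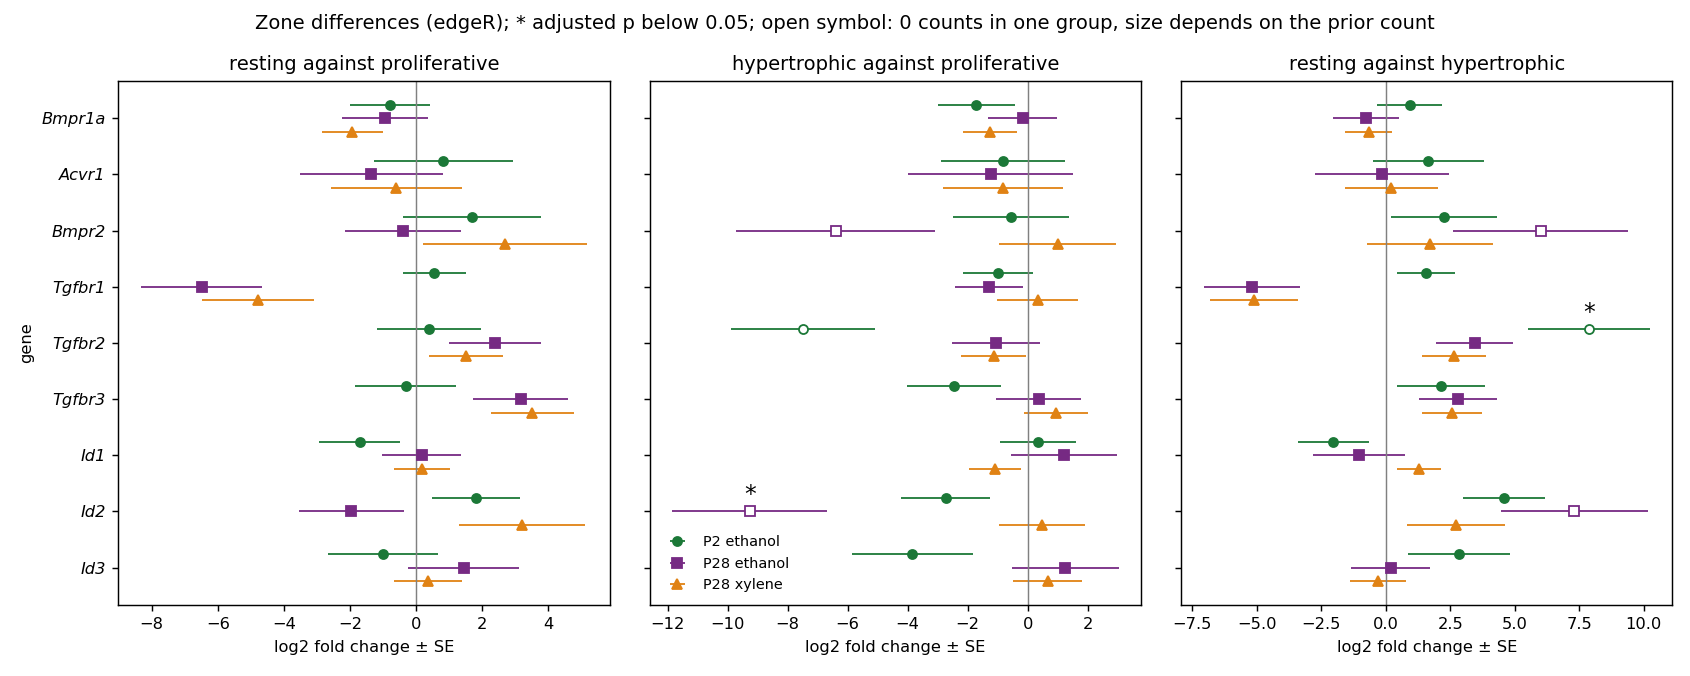
Log2 fold change ± SE between zones for the 9 genes tested, in P2 ethanol, P28 ethanol and P28 xylene sums (edgeR); open symbols have 0 counts in 1 group. The stars are Tgfbr2 in P2 resting against hypertrophic and Id2 in P28 hypertrophic against proliferative, both with 0 counts in the hypertrophic sums, where the fitted size depends on the prior count.

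The BMP type I receptor Bmpr1a, through which most BMP signals in chondrocytes pass, was the receptor detected most widely, with counts in 20 of 21 sums. At P2 it was at 2.73, 131, 91.3 and 35.2 CPM in resting sums (animals A, D, G and F), 54.7, 113, 102 and 6.78 CPM in proliferative sums (A, D, G and E) and 19.0, 71.4, 13.9 and 14.4 CPM in hypertrophic sums (A, D, G and C). The hypertrophic values were low in 3 of 4 animals but lay inside the range of the other zones. At P28 it was at 47.6, 203 and 0 CPM in resting, 110, 98.4 and 49.7 CPM in proliferative and 145, 87.4 and 32.1 CPM in hypertrophic sums (animals A, B and D), with all zones overlapping. It differed from the proliferative zone by -1.71 ± 1.28 (log2 fold change ± SE) in P2 hypertrophic and -0.17 ± 1.15 in P28 hypertrophic cells, with adjusted p of 0.620 and 0.978. Bmpr1a made up at least 59.1% of the counts of the 4 BMP receptors in 17 of the 21 sums. The exceptions were the resting sums of P2 animal A (3.23%), P28 animal A (36.0%) and P28 animal D (0 of 1 count) and the hypertrophic sum of P2 animal C (4.76%).

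Bmpr1b, the type I receptor that marks early cartilage condensations, had counts in 6 of 21 sums and was too low for any test. Its largest value, 274 CPM, came from 19 counts in the hypertrophic sum of P2 animal C, whose scaled library was so small that 1 count is worth 14.4 CPM. A library of the same animal label under the depth minimum, P2 hypertrophic replicate 4, held 6 more counts of Bmpr1b. P2 resting replicate 4 of that label, also under the minimum, held 3. In the other sums it did not pass 5.66 CPM. In xylene sums it was at 3.10 CPM in resting cells of animal D and at most 0.227 CPM in the others.

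Acvr1, the type I receptor also known as ALK2, was found in 12 of 21 sums at 0 to 28.3 CPM. At P28 its proliferative sums held 23.5, 28.3 and 0 CPM and its resting sums 0, 25.4 and 3.89 CPM, so the zones overlapped. Its highest pooled value was in the single P3 hypertrophic library, 47.3 unscaled CPM (counts over all counts of the library), against 0.917 in P3 resting and 3.35 in P3 proliferative cells. P2 and P28 ethanol hypertrophic libraries pooled to 1.08 and 3.19 unscaled CPM, and those of xylene sections to 21.6.

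Bmpr2, the type II receptor for BMPs, was in 13 of 21 sums. The P2 resting sums held 79.3, 9.08, 2.15 and 14.5 CPM, the proliferative sums 0, 22.8, 0.922 and 0 CPM, and the hypertrophic sums 0, 7.39, 1.43 and 14.4 CPM. At P28 the proliferative sums all held counts (2.35, 7.92 and 6.48 CPM, 11 counts in all) and the hypertrophic sums held 0, which does not overlap; 19.2% of all genes tested did not overlap in this comparison, in either direction. The fitted difference did not pass the test (adjusted p = 0.422), and 3 counts in the pooled hypertrophic sums, the limit that a count of 0 allows, would be 3.53 CPM, so a difference of this size was near what this depth can show. All 16 P28 resting counts of Bmpr2 in ethanol sections came from a single library of animal A (84.7 CPM). In xylene sections Bmpr2 was at 16.6 and 4.16 CPM in the hypertrophic and 8.18 and 2.10 CPM in the proliferative sums of animals D and E, higher in the hypertrophic zone in both, the opposite of the ethanol order.

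Tgfbr2, the type II receptor that binds TGF-beta ligands, was higher in resting than in hypertrophic cells at P2. The resting sums of animals A, D, G and F held 0, 43.6, 45.6 and 0.452 CPM, the proliferative sums of A, D, G and E held 6.84, 37.4, 10.8 and 0 CPM, and all 4 hypertrophic sums held 0. None of the 8 P2 hypertrophic libraries, the shallow ones included, held a count of Tgfbr2. The resting values were high in animals D and G and at or near 0 in A and F, so the zones met at 0. Over the pooled sums, 304 resting counts stood against 0 hypertrophic counts, which makes Tgfbr2 at least 29.2-fold higher in resting cells when 3 counts over the hypertrophic group are taken as the limit. Of the 304 counts, 255 came from animal G, and without it the bound was 2.58-fold. The difference passed the test (adjusted p = 0.0291). It rests on animals D and G: without D, which may be a pool, the adjusted p was 0.295, and without G 0.566. Without P28 animal B, which enters through the shared fit, it was 0.0501. Against the proliferative zone Tgfbr2 was at least 14.2-fold lower in pooled hypertrophic sums, with an adjusted p of 0.0642 that misses the threshold.

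Summed markers of perichondrium and fibroblasts, cells that also carry TGF-beta receptors, were 982 to 6400 CPM in the P2 resting sums and 266 to 1690 CPM in the hypertrophic ones, with 9 and 6 of 10 markers detected in at least 1 sum (Dpt at 0 in both, Thy1, Pdgfra and Prrx1 at 0 in hypertrophic sums). Rn45s, Lars2 and Glra2, symbols that hold ribosomal or repeat reads, took 9.28 to 37% of counts in the P2 resting and 41.8 to 92.1% in the P2 hypertrophic sums, with no overlap; with these symbols left out, Tgfbr2 still passed (adjusted p = 0.0275). The part of the markers in the Tgfbr2 difference was not tested. In bulk captures of this kind, fewer cells of a type and less RNA per cell cannot be told apart. In the single P3 animal Tgfbr2 had the same order of values, 102 unscaled CPM in resting, 35.3 in proliferative and 7.01 in hypertrophic cells, in 1 library each.

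At P28 Tgfbr2 was at 127, 91.3 and 412 CPM in the resting sums of animals A, B and D, 47, 18.1 and 34.6 CPM in the proliferative sums and 0, 25.0 and 22.2 CPM in the hypertrophic sums. Every resting value lay above every value of the other zones (17.3% of all genes tested did not overlap between resting and proliferative sums and 13% between resting and hypertrophic sums, in either direction), yet neither difference passed the test across all genes: 2.39 ± 1.39 against proliferative (adjusted p = 0.545) and 3.45 ± 1.49 against hypertrophic (adjusted p = 0.257). The pooled ratio of resting to hypertrophic sums was 11.5 (6.95 to 20.3, exact Poisson 95% interval, counting error only), and 6.05 (2.81 to 14.9) without animal D, whose 1 resting library held 106 of the 148 resting counts. In xylene sections the resting sums held 91.8 and 130 CPM (animals D and E), the proliferative sums 106 and 24.1 CPM and the hypertrophic sums 68 and 4.76 CPM. There the resting zone was higher than the proliferative zone in animal E and lower in animal D.

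Tgfbr3, the co-receptor betaglycan, which presents TGF-beta to the type II receptor, was, like Tgfbr2, at its highest in resting cells at P28. Its P28 resting sums held 153, 86.2 and 393 CPM (animals A, B and D), its proliferative sums 21.2, 32.8 and 17.3 CPM and its hypertrophic sums 0, 84.3 and 32.1 CPM. The resting values did not overlap those of either other zone, though the lowest, 86.2 CPM, lay just above the highest hypertrophic one, 84.3 CPM, both of animal B, with pooled ratios of 8.80 (6.28 to 12.5) to proliferative and 4.86 (3.40 to 7.07) to hypertrophic sums. The fitted differences were 3.16 ± 1.43 and 2.80 ± 1.51, with adjusted p of 0.399 and 0.395, so they did not pass. Without animal D, which leaves 46 of the 147 resting counts, the pooled ratios were 4.11 (2.61 to 6.48) and 1.96 (1.19 to 3.28). Xylene sections gave 75.7 and 248 CPM in resting, 29.5 and 6.29 CPM in proliferative and 45.9 and 19.6 CPM in hypertrophic sums of animals D and E, again with resting above the rest in both animals (3.52 ± 1.25 against proliferative, adjusted p = 0.377). At P2 Tgfbr3 was low in each zone, at 24.6, 5.45, 3.76 and 0.903 CPM in resting, 0, 34.2, 8.60 and 0 CPM in proliferative and 0, 12.3, 0 and 14.4 CPM in hypertrophic sums.

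Between the ages, Tgfbr3 rose in the resting zone from P2 to P28. The 3 P28 sums, at 211 ± 161 CPM (mean ± SD), lay above the 4 P2 sums, at 8.68 ± 10.8 CPM, and the change was 5.22 ± 1.28 on the log2 scale (adjusted p = 0.0394). The pooled counts were 147 against 38 and the pooled ratio 55.7 (38.8 to 81.9); it was 29.1 (18.5 to 45.9) without P28 animal D. The P2 sums with the most counts, of G and F, had the lowest levels. The call was lost without P2 animals D, F or G or P28 animals A or D, in each case with the change still positive (3.02 to 5.60) and adjusted p of 0.0657 to 0.724. Over the same sums the markers of perichondrium and fibroblasts went the other way, at 144 to 776 CPM at P28 against 982 to 6400 CPM at P2. Endothelial markers overlapped (0 to 79.4 against 0.908 to 57.4 CPM). Of these 12 markers, 10 were at 0 in all P28 and 6 in all P2 resting sums, Pecam1 and Cdh5 among them at both ages. Markers of blood and other haematopoietic cells moved with Tgfbr3: their sum was 35.5 to 781 CPM in P28 and 4.54 to 21.2 CPM in P2 resting sums, with no overlap. The P28 resting sum with the highest Tgfbr3 and Tgfbr2, that of animal D, also held the highest blood value of the 21 sums, 781 CPM from 201 counts, with 5 of 9 markers detected, and 0 endothelial counts. At 0 in all P28 resting sums were Hba-a1, Hba-a2, Cd68 and Csf1r, and in all P2 resting sums Hba-a1, Hba-a2, Cd68, Lyz2 and S100a9. The part of these markers in the Tgfbr3 change was not tested. The P2 and P28 sums differed in depth, with 9268586 against 643415 scaled counts in all, and the part of depth was not tested. Tgfbr2 in the resting zone also did not overlap between the ages (91.3 to 412 against 0 to 45.6 CPM), with a change of 3.36 ± 1.19 that did not pass (adjusted p = 0.248).

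Tgfbr1, the type I receptor that pairs with Tgfbr2, had other values. At P28, where Tgfbr2 and Tgfbr3 stood highest, the resting sums of animals A, B and D held 5.29, 0 and 0 CPM of Tgfbr1, a single count in all. The proliferative sums held 2.35, 26.0 and 1020 CPM and the hypertrophic sums 24.1, 3.12 and 286 CPM. The highest value came from 471 counts in 1 library, proliferative replicate 8 of animal D, while replicate 9 of the same label held 0. The difference of resting against proliferative cells was -6.49 ± 1.84 (adjusted p = 0.0634), short of the threshold. It was -2.44 ± 1.69 without animal D (adjusted p = 0.907) and -12.41 ± 2.79, past the threshold, without animal A (adjusted p = 0.00931). Leaving out A takes away the single resting count, so the resting sums are at 0 and the fitted size there depends on the prior count.

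In the deeper xylene sums Tgfbr1 was again low in resting cells: 1.86 and 1.30 CPM in resting sums of animals D and E (4 counts in all), 45.7 and 42.5 CPM in proliferative and 71.5 and 42.8 CPM in hypertrophic sums. The fitted differences there were -4.78 ± 1.69 against proliferative and -5.11 ± 1.71 against hypertrophic cells (adjusted p of 0.375 and 0.138, with 2 residual degrees of freedom). The pooled ratios were 0.0376 (0.0102 to 0.0974) and 0.0257 (0.00697 to 0.0662). When xylene and ethanol sums of P28 were fitted together, both differences passed, at -5.49 ± 1.17 (adjusted p = 0.00115) and -4.92 ± 1.14 (adjusted p = 0.00178). Animal D then enters with both fixations, each as a separate block, as if from different animals. The adjusted p-values of this joint fit therefore rest on fewer animals than blocks. The ethanol sums of P2 were in the same fit. Without P28 proliferative replicate 9 and xylene hypertrophic replicate 3 they were -5.78 ± 1.19 (adjusted p = 0.000750) and -4.77 ± 1.13 (adjusted p = 0.00215). Against this, 2 resting ethanol libraries just under the depth minimum did hold Tgfbr1, replicate 2 of animal A with 21 counts in 92552 and replicate 7 of animal C with 10 counts in 86737. With a minimum of 20000 counts per library the ethanol differences were -1.35 ± 1.52 and 0.91 ± 1.35, and neither passed.

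Within the 3 TGF-beta receptors, a ratio that no library scaling can move, Tgfbr1 took 0 to 1.85% of the counts in P28 ethanol resting sums and 0.344% and 1.10% in xylene resting sums. Resting libraries under the depth minimum differed: replicate 2 of P28 animal A held 21 Tgfbr1, 21 Tgfbr2 and 13 Tgfbr3 counts. Replicate 7 of animal C held 10, 4 and 0, and replicate 5 of animal B held 1, 10 and 31. In the xylene proliferative and hypertrophic sums Tgfbr1 took 25.2 to 63.7%. In the ethanol proliferative and hypertrophic sums of P28 the share ran from 2.78% to 100% (the last of 3 counts), and 2 of these 6 sums, at 3.33% and 2.78%, stood near the resting range. At P2 the resting shares were 55%, 52.6% and 51.8% in animals A, D and G, and 0 of 3 counts in animal F. Among P2 proliferative sums the share was 100% in animal E, where all 203 receptor counts were Tgfbr1 (1380 CPM), and 24.2%, 66.7% and 72.7% in D, A and G.

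**Figure D3:**
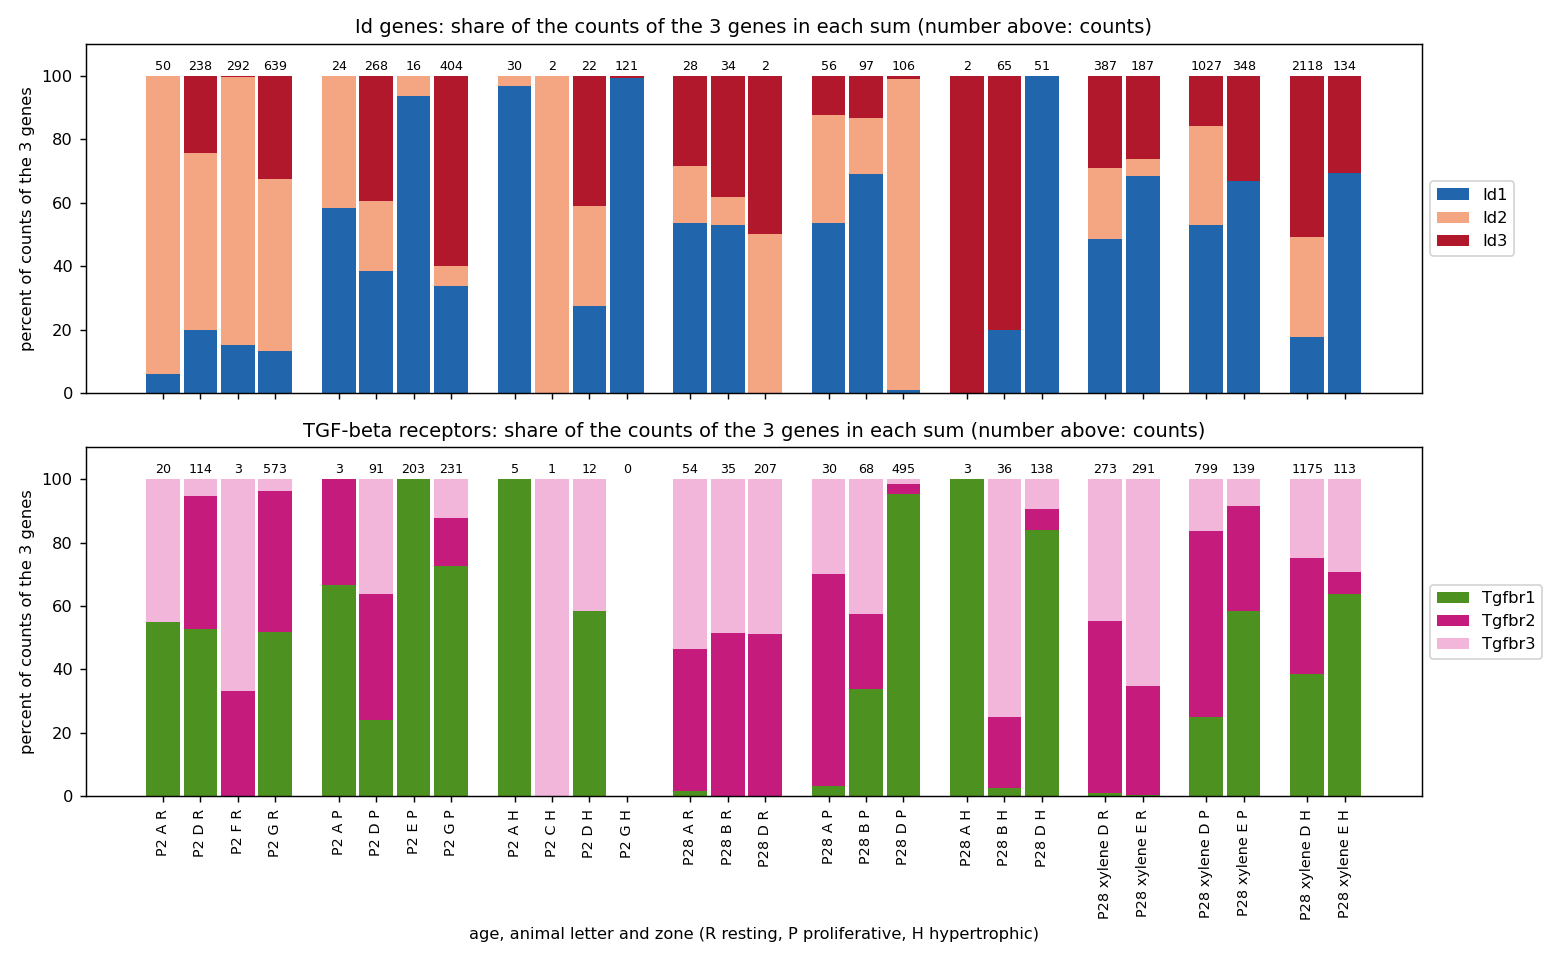
Share of each gene among the counts of the 3 Id genes (top) and the 3 TGF-beta receptors (bottom) in each sum, with the number of counts above each bar. Tgfbr1 was low in P28 resting sums of both fixations (0 to 1.85%), and Id2 took 54.1 to 94% of Id counts in P2 resting sums. Libraries under the depth minimum are not shown, and some P28 resting ones had a larger share of Tgfbr1.

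Of the Id genes, Id2 had the clearest zone values. At P2 the resting sums of animals A, D, G and F held 128, 121, 61.9 and 112 CPM of Id2, the proliferative sums of A, D, G and E held 68.4, 61.2, 7.99 and 6.78 CPM, and the hypertrophic sums of A, D, G and C held 9.49, 17.2, 0 and 28.8 CPM. Every resting value lay above every hypertrophic one, the only such pair of zones among the 10 genes at P2, where 12% of all genes tested did not overlap between these zones, in either direction. Within animals A, D and G, which have all zones, Id2 was in each case highest in resting and lowest in hypertrophic cells. The difference of resting against hypertrophic was 4.57 ± 1.59 and missed the threshold (adjusted p = 0.0793). It passed with DESeq2 (adjusted p = 0.0120), with a library minimum of 20000 counts (0.0464) and without P28 animal D (0.0308). Resting against proliferative was 1.82 ± 1.33 (adjusted p = 1).

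At P28 Id2 was at 44.7, 19.2 and 225 CPM in proliferative sums (animals A, B and D), 26.5, 15.2 and 3.89 CPM in resting sums and 0 in hypertrophic sums. The proliferative value was the highest within each animal, but the resting and proliferative ranges overlapped. Resting against proliferative was -1.96 ± 1.59 and did not pass (adjusted p = 0.689). The fall from proliferative to hypertrophic cells passed the test (adjusted p = 0.0338), with 140 counts against 0 in the pooled sums, at least 22.4-fold lower, and at least 4.08-fold lower without animal D. Proliferative replicate 8 of animal D held 0 counts of Id2. Of the 140 counts, 104 came from proliferative replicate 9, the library whose Xist and Y-linked counts differ from the rest of its label. Without that library the adjusted p was 0.406, and without P28 animals A, B or D or P2 animal D it was 0.245, 0.218, 0.431 and 0.0987. Hypertrophic libraries under the depth minimum held 4 counts of Id2 in 2 libraries, so the gene was not at 0 in every capture. Rn45s, Lars2 and Glra2, symbols that hold ribosomal or repeat reads, took 47.7 to 85% of counts in the P28 hypertrophic sums against 31.4 to 58.9% in the proliferative ones; the fall was called with these symbols left out too (adjusted p = 0.0345).

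In xylene sections, animal D again among them, no difference passed. In animal D Id2 was at 53.4, 72.7 and 105 CPM in resting, proliferative and hypertrophic sums, the last from 666 counts, 401 of them from replicate 3, whose Xist and Y-linked counts differ from the rest of its label, and in animal E at 13 CPM in resting and 0 in both other zones. Hypertrophic against proliferative was 0.48 ± 1.44 there (adjusted p = 0.996), and 0.15 ± 1.52 without that library. In the single P3 animal Id2 was at 61.4 and 68.8 unscaled CPM in resting and proliferative cells and 0.438 in hypertrophic cells, from 1 count in 2282352.

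Id2 in resting cells did not overlap between the ages: 61.9 to 128 CPM at P2 and 3.89 to 26.5 CPM at P28. The change was -2.94 ± 1.28 (adjusted p = 0.410), and the age difference of resting against proliferative was -3.78 ± 2.07 (adjusted p = 0.742), so neither passed. Resting replicate 3 at P28, under the depth minimum with 21741 counts, held 9 counts of Id2 (414 unscaled CPM), and the xylene resting sum of animal D was at 53.4 CPM. Of the 10 genes, Tgfbr2, Tgfbr3 and Id2 were the 3 whose resting sums did not overlap between the ages, where 15.5% of the 3327 genes tested did not, in either direction, and 0.872% passed the test.

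Id1, an Id gene often used as a readout of BMP signalling, had another order of zones at P2 than Id2. Its P2 values were 8.20, 42.7, 15.2 and 19.9 CPM in resting sums (A, D, G and F), 95.8, 107, 41.8 and 102 CPM in proliferative sums (A, D, G and E) and 275, 14.8, 57.3 and 0 CPM in hypertrophic sums (A, D, G and C). Id1 was lower in resting than in proliferative cells in the 3 animals with both sums. In animal E, whose resting replicate 6 fell just under the minimum with 97514 counts, the order was reversed, with 47 Id1 counts (482 unscaled CPM) against 15 (122 unscaled CPM) in its proliferative library. Also, the ranges met between 41.8 and 42.7 CPM. The fitted difference was -1.71 ± 1.22 and did not pass (adjusted p = 1). The hypertrophic values spread from 0 to 275 CPM, with no shared direction among the animals. At P28 Id1 was at 79.4, 91.3 and 0 CPM in resting, 70.5, 75.8 and 2.16 CPM in proliferative and 0, 40.6 and 126 CPM in hypertrophic sums of animals A, B and D. Within each animal the resting and proliferative values were close, and animal D, unlike A and B, had its highest value in the hypertrophic zone. Xylene sums held 117 and 167 CPM in resting, 124 and 122 CPM in proliferative and 58.7 and 55.3 CPM in hypertrophic cells, where the hypertrophic values were lowest in both animals (-1.10 ± 0.86 against proliferative, adjusted p = 0.996).

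The make-up of the Id counts put Id2 ahead in the 4 P2 resting sums. Id2 took 94%, 55.9%, 54.1% and 84.6% of the Id counts there (animals A, D, G and F) and Id1 6%, 19.7%, 13.3% and 15.1%. In P2 proliferative sums Id2 took 41.7%, 22%, 6.44% and 6.25% (A, D, G and E), all below the resting shares. In P2 hypertrophic sums of A and G, Id1 took 96.7% of 30 and 99.2% of 121 counts, and in that of D 27.3% of 22. The hypertrophic sum of C held 2 Id counts. Outside the sums the order differed: resting replicate 6 at P2 held 47 Id1, 10 Id2 and 0 Id3 counts, and the P3 resting library 146, 134 and 126. These shares were compared after the values had been seen and were not tested.

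Id3 was in 15 of 21 sums, at 0 to 162 CPM. At P2 it was at 52.7 and 37.2 CPM in the resting, 110 and 74.3 CPM in the proliferative and 22.2 and 0.478 CPM in the hypertrophic sums of animals D and G, and at 0.452 CPM or less in the sums of A, C, E and F. Hypertrophic against proliferative was -3.85 ± 2.01 at P2 (adjusted p = 0.372). At P28 its values were 42.3, 65.9 and 3.89 CPM in resting, 16.5, 14.7 and 2.16 CPM in proliferative and 16.1, 162 and 0 CPM in hypertrophic sums, with the highest from 52 counts in hypertrophic replicate 5 of animal B, while replicate 6 of the same label held 0. In xylene animal D, Id3 reached 170 CPM in the hypertrophic sum, against 24.4 CPM in animal E.

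**Figure D4:**
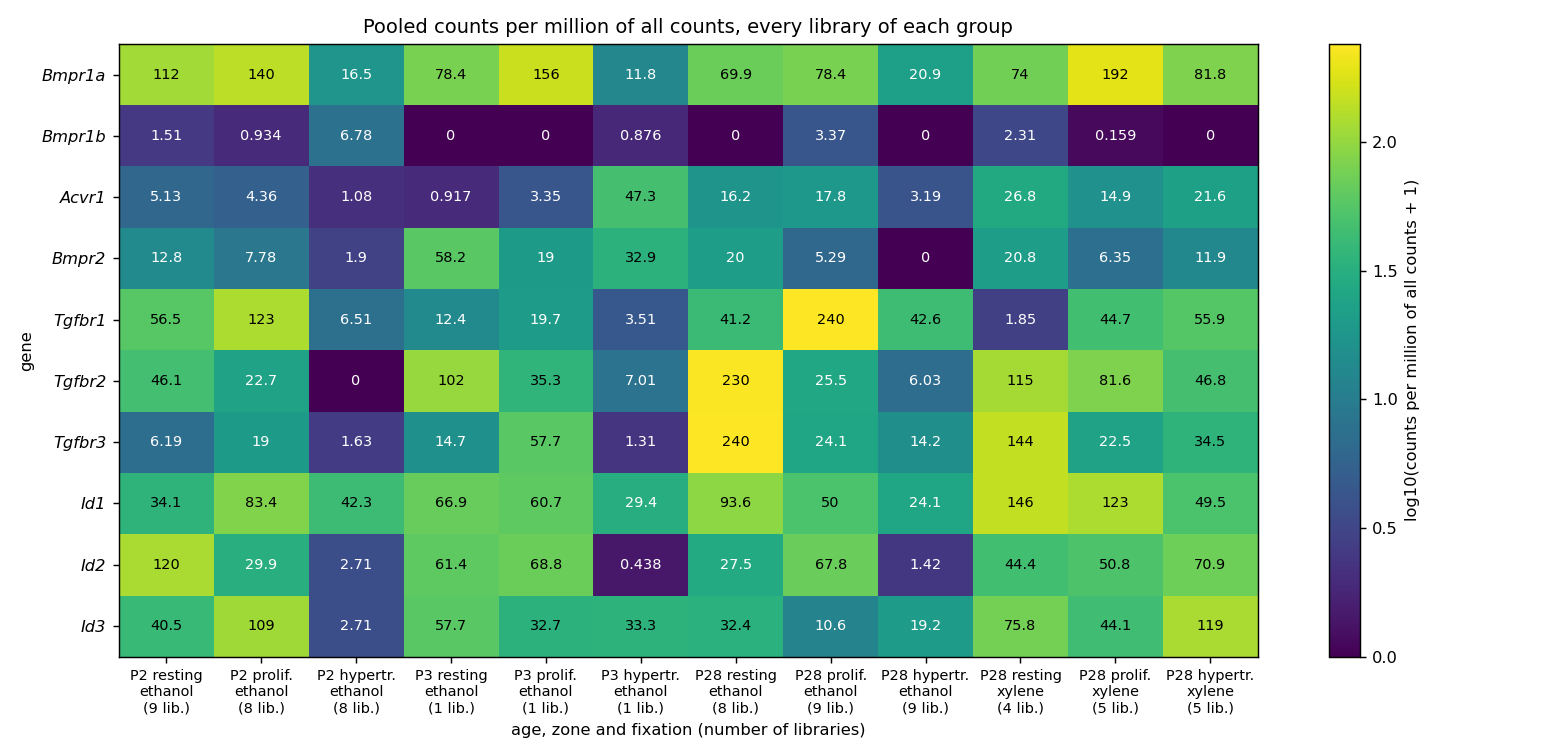
Unscaled CPM of each gene, pooled over every library of each age, zone and fixation, shallow libraries included (the number of libraries is given under each group). Tgfbr2 and Tgfbr3 were at 230 and 240 in P28 resting ethanol libraries and at 115 and 144 in the xylene ones; several values rest on 1 library, such as Tgfbr1 in P28 proliferative ethanol (240, 94.6% of its counts from 1 library).

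Across the 21 sums, Tgfbr2 and Tgfbr3 had the most similar profiles among pairs of the 9 genes tested (Spearman's rho 0.74), followed by Bmpr1a with Id3 and Bmpr2 with Id2 (0.71 each), while Id1 and Id2 (-0.13) and Tgfbr1 and Tgfbr3 (-0.24) had values below 0. These are descriptions over sums that share animals and differ in depth. By the same measure over all genes tested, the genes most like Tgfbr2 were Htra1 (0.84), 2810001G20Rik (0.83) and Igfbp7 (0.83), and those most like Tgfbr3 were Il15ra (0.86), Htra1 (0.82) and 2810001G20Rik (0.81). Id2 was most like Adam12 (0.87), Ttk (0.86) and Frmd4a (0.85), Id1 like Mrpl30 (0.80), Sccpdh (0.76) and Ing2 (0.70), and Id3 like Srp14 (0.82), Snrpg (0.82) and Txn1 (0.81). Bmpr1a was most like Naa50 (0.87), Dpy19l1 (0.83) and Zbtb33 (0.80), Tgfbr1 like Ap1g1 (0.82), Khdrbs1 (0.72) and Nisch (0.72), Acvr1 like Vps8 (0.84), Rabggtb (0.81) and Rab40c (0.80), and Bmpr2 like Naglu (0.84), Rpl39l (0.83) and Mkks (0.82).

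Among the ligands of these receptors, Bmp2, Bmp8a and Tgfb3 rose from proliferative to hypertrophic cells at P2. Of 22 ligand genes, 7 were tested between zones, and at P2 3 rose and 0 fell in hypertrophic against proliferative cells (median log2 change 2.82, against -0.36 over all genes, of which 2.31% passed). Bmp2 was at 39.7 to 170 CPM in hypertrophic and 0 to 20.5 CPM in proliferative sums, Tgfb3 rose by 5.85 ± 1.71, and Bmp8a, with 116 counts against 0, was at least 65.3-fold higher. The ligand Gdf10, with 0 counts in P2 resting sums, was at least 1050-fold lower there than in proliferative and at least 186-fold lower than in hypertrophic sums. Of its 161 P2 hypertrophic counts, 98.8% came from a single sum, and the lowest hypertrophic sum was at 0 CPM. At P28 Bmp8a was at 207 to 426 CPM in hypertrophic and 0 to 22.6 CPM in proliferative sums (5.93 ± 1.51, adjusted p = 0.0137), and it rose in xylene sections as well (4.42 ± 0.86, adjusted p = 0.00315). Bmp6, a BMP ligand, rose there too, at 33.8 to 150 CPM in hypertrophic and 0 to 0.227 CPM in proliferative sums (8.39 ± 2.11, adjusted p = 0.0435). Gdf10 was lower in xylene hypertrophic than proliferative cells (-3.33 ± 0.85, adjusted p = 0.0492, and 0.159 without xylene hypertrophic replicate 3). The P2 rise of Bmp2 was lost in 5 of 9 fits that left out 1 animal (P2 A, D or G, or P28 A or B, adjusted p up to 0.581), without resting replicate 8 (0.0765) and without P28 hypertrophic replicate 8 and P2 hypertrophic replicate 3 (0.0522). That of Tgfb3 was lost in 4 of 9 (P2 A, D or G, or P28 B, up to 0.568) and that of Bmp8a in 1 of 9 (P2 D, 0.135). Gdf10 in P2 resting against hypertrophic cells was lost without P2 animal D (0.0794), G (0.638) or resting replicate 8 (0.303), and Bmp8a at P28 without P28 animal A, B or D (0.0820 to 0.401).

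Of 12 other receptors of the family, 3 were tested between zones in ethanol sums and 0 passed in edgeR. Of all genes, 0.259% to 3.77% passed in these zone comparisons and 0 to 0.273% in the age differences. A count of 0 of 3 is near these shares. At an unadjusted p under 0.05 there was 1, in P2 hypertrophic against proliferative. DESeq2 called 1 in P28 hypertrophic against proliferative and 1 in P28 resting against hypertrophic. It also called 1 in each age difference of hypertrophic against proliferative and resting against hypertrophic cells. Of 8 SMAD genes, 7 were tested between zones, and 2 passed, both in P28 resting against hypertrophic (1.77% of all genes). Smad4, the shared partner of the receptor SMADs, was at least 17.9-fold lower in resting sums, with 0 against 71 counts. The inhibitory Smad7, with 0 against 83 counts, was at least 20.9-fold lower. These bounds rest on P28 resting sums, where 3 counts would be 4.66 CPM, and both calls were lost without P28 proliferative replicate 9 (adjusted p of 0.0506 each). Each was also lost in 5 of 9 fits that left out 1 animal: P28 A, B or D and P2 D for both, P2 G for Smad4 (adjusted p up to 0.373) and P2 A for Smad7 (up to 0.381). Smad7 was lost without P2 resting replicate 8 (0.0529) and without P28 hypertrophic replicate 8 and P2 hypertrophic replicate 3 (0.0547) as well. Of 20 regulators of receptors and SMADs, 15 were tested, and 1 passed, the co-repressor Ski in P2 resting against hypertrophic, with 780 against 0 counts, at least 75-fold higher (3.77% of all genes passed; adjusted p = 0.0639 without resting replicate 8, 0.117 without P2 animal D and 0.297 without G). Of 12 partners and relatives of the Id proteins, 3 were tested and 0 passed with either tool, with 1 at an unadjusted p under 0.05 in P2 hypertrophic against proliferative. With edgeR this too is near the shares of all genes given above for the other receptors.

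Of 7 tested BMP response genes, 2 passed in P28 resting against hypertrophic cells, where 1.77% of all genes passed. They were Smad7, the same call as among the SMAD genes above, and Nog, an antagonist that BMPs induce, at -4.09 ± 1.18 (adjusted p = 0.0367). Smad7 is also on the list of TGF-beta response genes, so its call does not belong to the BMP list alone. Nog was lost without P28 proliferative replicate 9 (0.0827), without P28 hypertrophic replicate 8 and P2 hypertrophic replicate 3 (0.0554), and in 6 of 9 fits that left out 1 animal (P2 A, D or G, or P28 A, B or D, up to 0.257). Of 8 tested TGF-beta response genes, 2 passed between hypertrophic and proliferative cells at each age, where 2.31% of all genes passed at P2 and 1.12% at P28. Tgfbi, a secreted matrix protein named for its induction by TGF-beta, had 3 hypertrophic against 2336 proliferative counts at P2 (-8.50 ± 1.27) and 0 against 545 at P28, at least 87.1-fold lower. Fibronectin (Fn1), of the same list, went the other way in the hypertrophic zone, by 3.55 ± 0.67 at P2 and 2.89 ± 0.63 at P28, the first lost without P2 animal G (adjusted p = 0.112) and the second without P28 animal A (0.145) or B (0.219). Tgfbi kept both calls without each animal in turn. In the xylene sums the order was reversed: Fn1 passed in hypertrophic against proliferative cells (3.19 ± 0.66, adjusted p = 0.00540), and Tgfbi passed in no comparison. Nor was the rise of Fn1 particular to the hypertrophic zone. At P28 it was also higher in resting than in proliferative cells (2.74 ± 0.62, adjusted p = 0.00515). That call was lost without P28 animal A or B (adjusted p up to 0.412). Tgfbr2 was at 0 in all hypertrophic sums at P2 and had counts in 2 of the 3 at P28. Cdkn1a, of the same list, a cell cycle inhibitor, was lower in P2 resting than hypertrophic sums (4 against 847 counts). Of 9 tested antagonists and latency proteins, 4 passed in P2 resting against hypertrophic cells, where 3.77% of all genes passed. Dcn, Fstl1 and Bgn were higher and Chrdl1 lower in the resting cells, Dcn being a perichondrial marker too. Without animal G, Fstl1, Bgn, Chrdl1 and Cdkn1a were lost (adjusted p of 0.0785, 0.0924, 0.195 and 0.123), and without D, Bgn (0.0867).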

How the data were processed

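Gene counts were made by the authors with STAR 2.5.2b on mm10 and featureCounts 1.5.3 after trimming with cutadapt, per the submitters' processing notes; for the annotation, strand setting and multi-mapping reads, the choices are not given in these sources. The deposited counts, 100 columns for 68 libraries, were used raw, and paired columns of a library were added. Reads were not marked with molecular identifiers, so intervals and floors cover counting error only.

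Ethanol libraries with at least 100000 counts were summed per animal and zone, and labels alike except for a final number were taken as 1 animal. edgeR 4.0.16 in R 4.3.3 (TMM, filterByExpr, robust quasi-likelihood fit) compared zones in 1 fit of the 21 sums, blocked by animal (8 residual degrees of freedom), ages within a zone with a deposit term (4), and the 6 xylene sums separately (2). P-values were adjusted over all genes by Benjamini-Hochberg, at 0.05. The pairing comes from the labels; deviations of zones of 1 animal correlated at -0.004 to 0.187. P-values of the zone tests weigh a difference against the spread left after the animal block, in a fit that both ages share. Those of the age tests weigh it against the spread between animals left after the deposit term. DESeq2 1.42.0 and other settings were alternatives. On data simulated for P2 hypertrophic against proliferative (6958 genes), 12 of 100 genes changed by 3 on the log2 scale and 78 of 100 changed by 6 were recovered, with 1 false call. The simulation gave every gene the same assumed spread and held no differences between animals. That spread was not taken from these data, so the figures do not give the power or error rate of the tests here. Bounds against a group at 0 use 3 counts over that group, and 95% intervals of pooled ratios are exact.

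The 10 genes and all gene lists were chosen with earlier results of these data known. All 10 are described; genes most like each were the 3 with the highest Spearman's rho over the 21 sums, and the pathway genes named are among those that passed the threshold. One gene of the TGF-beta response list is not reported here.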

Additional observations from a re-analysis of the deposited data

Results flagged for a closer look

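In groups of 4 P2 sums, 11 of 29 gene and zone groups had 1 sum set apart. Its gap to the nearest other was large for the group's range (Dixon's test at 95%). The test assumes normal values, and a group with counts in 1 sum only is always set apart. The 11 of 29 can therefore not be read against a chance rate. Groups of 3 at P28 were not examined. In P2 animal D, which may be a pool, Bmpr1a (71.4 CPM), Acvr1 (7.39 CPM) and Id3 (22.2 CPM) stood apart in the hypertrophic sum. The same animal stood apart for Acvr1 (9.34 CPM) and Bmpr2 (22.8 CPM) in the proliferative sum and for Bmpr1b (4.54 CPM) and Acvr1 (20 CPM) in the resting sum. Bmpr1b was high in the hypertrophic sum of animal C (274 CPM, from 19 counts) and in the proliferative sum of animal G (0.922 CPM, from 3 counts), with 0 in the others of its group. Tgfbr1 reached 1380 CPM in the proliferative sum of animal E, where endothelial markers summed to 325 CPM, and Bmpr2 79.3 CPM in the resting sum of animal A. The part of the endothelial markers was not tested.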

How the results depend on the processing

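Counts of the 10 genes past the threshold were within 1.5 times the main count in 216 cases (a comparison under another setting) and were not in 39. In P2 resting against hypertrophic, 1 gene passed; 0 passed with no filter on low counts, a minimum of 50000 counts outside Rn45s, Lars2 and Glra2, or without P2 resting replicate 8, 2 with DESeq2 or a minimum of 20000 counts, and 0 to 2 when 1 animal was left out. In P28 resting against proliferative, 0 became 1 with DESeq2 or xylene sums added (also without P28 proliferative replicate 9 and xylene hypertrophic replicate 3), and 0 to 1 with 1 animal left out. In P28 hypertrophic against proliferative, 1 became 0 with RLE scaling, no filter, either other minimum, xylene sums added (with or without those libraries), no replicate block (no animal term), or without P28 proliferative replicate 9 or P2 resting replicate 8, and 0 to 1 with 1 animal left out. In P28 resting against hypertrophic, 0 became 1 with xylene sums added and 2 (Tgfbr1 and Tgfbr2) without those libraries. In P28 against P2 resting cells, 1 became 0 with no filter, the 3 symbols left out, without P2 resting replicate 8, or with a minimum of 20000, where Tgfbr3 was not among the genes tested, and 0 to 1 with 1 animal left out. Leaving out 1 animal gave 0 to 1 for the age difference of resting against proliferative and for P28 against P2 in proliferative cells. The calls gained were Tgfbr1 without P28 animal A (-12.99) and without P28 animal D (-5.19). Without P28 animal A the P28 resting sums held 0 counts of Tgfbr1, so the size of -12.99 depends on the prior count. Settings that leave out a named library were chosen after seeing the data. The cause of the other shifts was not tested. Without the replicate block, Id2 in P28 hypertrophic against proliferative had an adjusted p of 0.0923, and no other call on the 10 genes changed. Among single genes, 1969 values kept their side of the threshold, 27 lost and 12 gained a call, and 0 called values changed sign. Nearly all of the 1969 were values short of the threshold that stayed short of it, and the 27 losses fell on only 3 calls. Most of the 216 cases above were likewise counts of 0 that stayed at 0. These totals therefore do not show that the calls were stable. Calls over all genes moved by over 1.5 times in every ethanol comparison, for example 28 to 345 around 161 in P2 hypertrophic against proliferative and 9 to 219 around 78 at P28. Depth limits low values: 3 counts were 1.12 CPM in the pooled P2 hypertrophic sums and 3.53 CPM in those of P28.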
